A study of Homo sapiens with 32 samples.

Results

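The replication-dependent histone genes are the genes for the core histones H2A, H2B, H3 and H4 and the linker histone H1 that sit in the HIST1, HIST2, HIST3 and HIST4 clusters. They were taken as the protein-coding rows whose symbol begins with HIST and a cluster number from 1 to 4 followed by H. This gave 71 of the 19815 protein-coding genes, among 60554 rows in all. There were 6 H1, 17 H2A, 18 H2B, 15 H3 and 15 H4 genes. The symbols are the older ones that the deposited tables use. On GRCh38, 55 of the genes lie on chromosome 6, 15 on chromosome 1 and 1 on chromosome 12.

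RNA-Seq was carried out on total mRNA (T) and on polysome-bound mRNA (P) of MCF10A, a non-tumourigenic human breast epithelial line, and of MDA-MB-231, a human triple-negative breast cancer line. Each line was kept in normoxia (N), in hypoxia of 0.5% O2 for 24 hours (H), in normoxia with 2.5 µM PP242 for 3 hours (NPP), or in hypoxia with that PP242 treatment (HPP). PP242 is an ATP-competitive inhibitor of the mTOR kinase, and the cells without it received the DMSO vehicle. The 8 groups of each line had 2 biological replicates, 32 libraries in all, and each line stands for its cell type alone. A total and a polysomal library whose titles carry the same number were read as 1 culture, and the tests between fractions treat such libraries as independent unless a block is named. The comparisons asked how the histone mRNAs changed with low oxygen, with mTOR inhibition and with both, in the cell as a whole and on polysomes.

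Replication-dependent histone mRNAs are the classic metazoan mRNAs without a poly(A) tail. Their 3′ end is formed by a cleavage just past a conserved stem-loop, which is bound by the stem-loop binding protein SLBP. They are made in bulk in S phase, when new DNA needs new nucleosomes, and are degraded rapidly when DNA synthesis stops. Some of these genes can also give longer mRNAs that run past the stem-loop, are spliced or cleaved at a downstream site, and carry a poly(A) tail. The libraries here were poly(A) selected, which favours mRNAs with a tail, so the counts need not follow the whole of the histone mRNA. The share of tailed mRNA in the counts was not measured.

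The stem-loop is shown first because it sets the 3′ end. It was searched for as a 16-base element in the 120 bases after the stop codon, and it was found in 71 of 71 histone genes and in 72 of 19924 protein-coding genes, or 0.361%. The 4 genes below lead the H1, H2A, H2B and H4 types by counts in MCF10A. They are written 5′ to 3′ on the gene's strand, on GRCh38, with the stem-loop in capitals and 5 flanking bases on each side.
HIST1H1C, chr6:26055739-26055764, minus strand: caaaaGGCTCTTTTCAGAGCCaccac
HIST1H2AC, chr6:26124664-26124689, plus strand: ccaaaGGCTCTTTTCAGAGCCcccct
HIST1H2BD, chr6:26158582-26158607, plus strand: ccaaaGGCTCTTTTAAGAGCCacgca
HIST2H4A, chr1:149833027-149833052, plus strand: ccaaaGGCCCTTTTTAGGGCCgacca
The form of HIST1H1C and HIST1H2AC was the commonest and stood in 41 of the 71 genes. The form of HIST1H2BD stood in 10 genes. The 15 H4 genes had stems that no gene of another type had, and the form of HIST2H4A stood in 4 of them.

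Few histone reads were present in each library. The 32 libraries held between 18340916 and 46032327 counts, and the histone genes took between 2086 and 61442 of them. Of the 71 genes, 5 were at 0 in every library of MCF10A and 5 in every library of MDA-MB-231. A mean of 10 or more counts per library was reached by 34 genes in MCF10A and by 28 in MDA-MB-231. The 5 genes with the most counts held 70.2% of the histone counts in MCF10A and 81.0% in MDA-MB-231. Counts are not divided by transcript length, so these are shares of counts and not of molecules.

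The same genes led most types in both lines. HIST1H1C held 98.5% of the H1 counts in MCF10A and 98.03% in MDA-MB-231, and HIST1H2AC held 52.5% and 75.2% of the H2A counts. HIST1H3H led H3 with 38.4% and 34.5%, and HIST2H4A led H4 with 79.9% and 41.4%. For H2B the lines differed, with HIST1H2BD at 39.0% in MCF10A and HIST1H2BK at 64.3% in MDA-MB-231.

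CA9, a carbonic anhydrase induced by hypoxia, served to check the oxygen labels. In MCF10A total RNA it was at 10.4 and 8.64 CPM (counts scaled to the TMM-adjusted library size) in N and 522 and 658 in H, and at 7.72 and 12.8 in NPP and 569 and 829 in HPP. In MDA-MB-231 it was at 0.574 and 0.0568 in N and 19.2 and 13.0 in H, and at 0.719 and 0.215 in NPP and 23.5 and 13.9 in HPP. CA9 was higher in every hypoxic library than in every normoxic one of its line. Of 6 markers fixed for MCF10A, KRT5, KRT14, KRT17 and LAMB3 were present, while CDH1, epithelial cadherin, stayed between 0 and 0.361 CPM and TP63, a basal transcription factor, between 0 and 0.226. KRT14, KRT17, LAMB3, CDH1 and TP63 also had enough counts to be tested in MDA-MB-231. The presence of KRT14, KRT17 and LAMB3 alone therefore did not separate the lines. Of 4 mesenchymal markers fixed for MDA-MB-231, VIM, ZEB1 and AXL were present there and in MCF10A as well. VIM ran from 3113 to 6082 CPM in the first and from 1691 to 9370 in the second, so that marker did not separate the lines. ZEB1 and AXL were higher in MDA-MB-231, at 43.6 to 88.2 and 699.8 to 1053 CPM against 4.69 to 32.6 and 225 to 401. CDH2 was lower there, at 0.407 to 1.54 CPM, than in MCF10A, at 28.2 to 87.7. CDH1, TP63 and CDH2 thus went against the labels, and the lines are called by their label names with that limit.

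The summed level of all 71 histone genes was higher in hypoxia than in normoxia in both lines and had its highest mean when PP242 was added to hypoxia. In MCF10A total RNA it was 74.7 and 68.4 CPM in N, 366 and 334 in H, 81.8 and 157 in NPP, and 408 and 1483 in HPP. In MDA-MB-231 total RNA it was 101.5 and 118.6 in N, 179 and 173 in H, 273 and 287 in NPP, and 467 and 531 in HPP. Every treated library lay above both N libraries of its line. Replicate 2 of MCF10A HPP stood far above replicate 1, so the size of that group's change rests on a wide spread. In bulk RNA, more cells that express a gene and more RNA per cell cannot be told apart.

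Polysomal RNA gave the same order in MDA-MB-231. There the summed level was 171.5 and 162 CPM in N, 319 and 203.5 in H, 412 and 354 in NPP, and 634 and 808 in HPP. In MCF10A it was 156 and 84.2 in N, 748 and 322 in H, 114 and 141 in NPP, and 640.5 and 1386 in HPP. The NPP and N libraries overlapped in MCF10A polysomal RNA, and in every other contrast with N the groups did not overlap. No test is given for these sums, since the genes were chosen with earlier results of these data known.

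**Figure D1:**
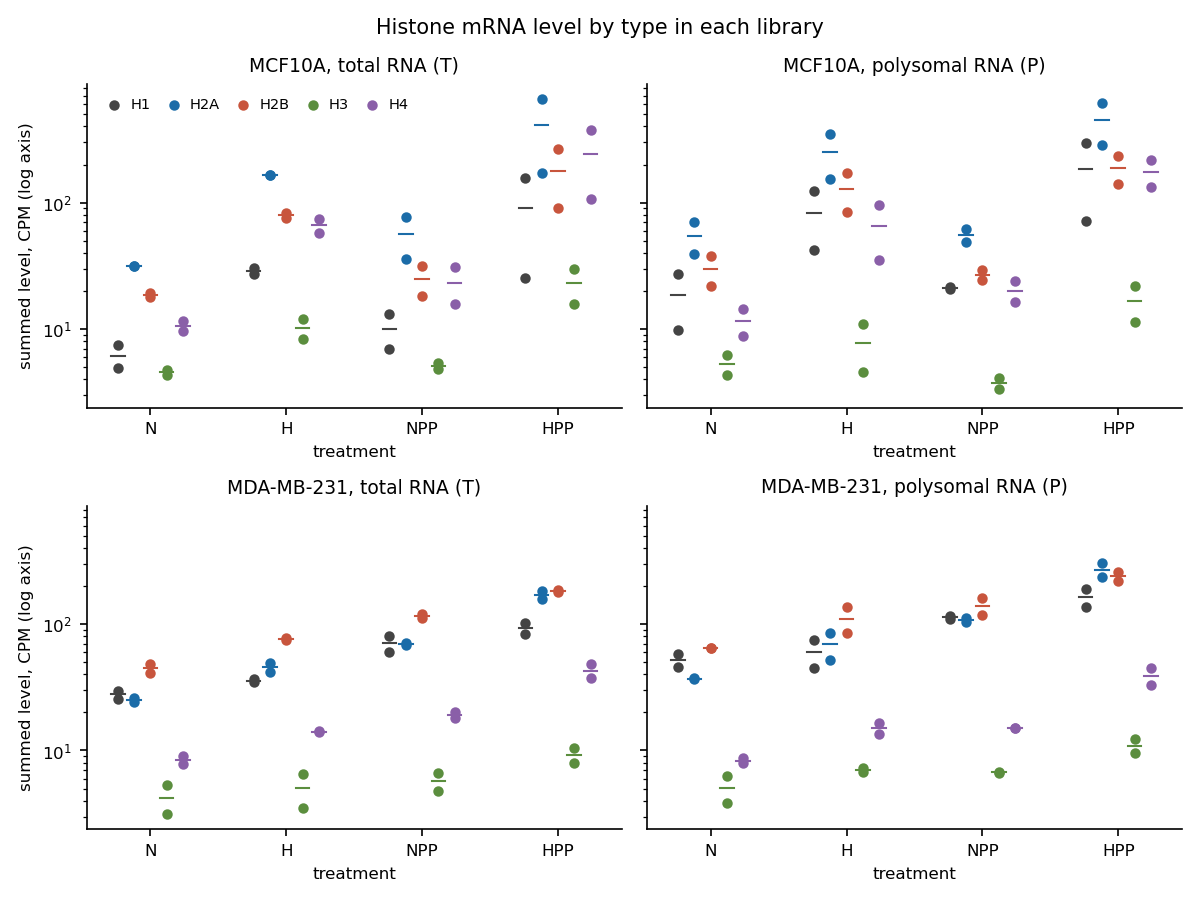
Summed level of the H1, H2A, H2B, H3 and H4 genes in each library, in CPM on a log axis, by treatment, with lines in the upper and lower rows and total and polysomal RNA in the left and right columns. Each point is 1 library and each bar the mean of 2; in total RNA every type had its highest mean in HPP, and the 2 MCF10A HPP libraries were far apart.

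As a ratio of group means, the summed level in HPP total RNA was 13.2 times that in N in MCF10A and 4.53 times that in MDA-MB-231. By type, the H4 genes had the highest ratio in MCF10A, 22.7, followed by H1 at 14.7, H2A at 13.1, H2B at 9.48 and H3 at 5.06. In MDA-MB-231 the H2A genes had the highest ratio, 6.80, followed by H4 at 5.09, H2B at 4.13, H1 at 3.33 and H3 at 2.18. The ratios were also taken without the leading gene of each type. Without it the ratios in MCF10A were 8.61 for H4, 2.30 for H1, 9.82 for H2A, 8.15 for H2B and 3.44 for H3, and in MDA-MB-231 2.88 for H2A, 5.17 for H4, 4.16 for H2B, 0.656 for H1 and 1.51 for H3. The H2B ratios of both lines and the H4 ratio of MDA-MB-231 moved little, while the order of the types changed. HIST2H4B, a near-identical copy that shares reads with HIST2H4A, stayed in the H4 sums. The H4 ratios without HIST2H4A are therefore not free of that gene's reads. The H1 genes other than HIST1H1C summed to a lower level in HPP than in N in MDA-MB-231. In MCF10A the library-to-library ratios of the H4 sum ran from 9.21 to 38.7 and those of H1 from 3.40 to 32.2, so the order of these neighbours lies within the spread of the replicates.

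Hypoxia alone raised 3 of the 41 histone genes tested in MCF10A total RNA and lowered 0, at an adjusted p under 0.05 in edgeR's quasi-likelihood test, where 1.54% of the 13124 genes tested were called in either direction. In MDA-MB-231 it raised 3 of 36 and lowered 0, where 1.27% of 13510 genes were called. The 3 genes were the same in both lines: HIST1H2AC, HIST1H2BD and HIST1H4H. They code for an H2A, an H2B and an H4 protein. The histone genes tested had a median log2 fold change of 1.08 (MCF10A) and 0.38 (MDA-MB-231), beside -0.03 and -0.02 over all genes tested. These medians ran from 0.74 to 1.46 and from 0.10 to 0.67 when 1 library was left out, and were 0.79 and 0.13 with no filter beyond 1 read.

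HIST1H2AC was at 11.8 and 12.9 CPM in N and 104.3 and 98.04 in H in MCF10A total RNA, a log2 fold change of 3.03 (SE 0.60, adjusted p = 0.0280). In MDA-MB-231 it was at 13.3 and 13.5 in N and 35.8 and 24.9 in H, a log2 fold change of 1.19 (SE 0.25, adjusted p = 0.0278). Both H libraries of HIST1H2AC lay above both N libraries in each line. HIST1H2BD was at 4.60 and 4.07 CPM in N and 28.8 and 32.1 in H in MCF10A, a log2 fold change of 2.81 (SE 0.56, adjusted p = 0.0302). MDA-MB-231 had 6.03 and 7.11 in N and 22.7 and 17.8 in H, a log2 fold change of 1.63 (SE 0.30, adjusted p = 0.0119). It was higher in H in all 4 pairs of libraries of each line. HIST1H4H was low in MCF10A, at 0.339 and 0.169 CPM in N and 5.37 and 2.48 in H, a log2 fold change of 3.95 (SE 0.74, adjusted p = 0.0215). MDA-MB-231 had 2.87 and 2.44 in N and 4.86 and 5.69 in H, a log2 fold change of 0.97 (SE 0.21, adjusted p = 0.0386).

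These hypoxia calls were close to the threshold. In MCF10A they fell to 0 without N replicate 1, without N replicate 2 and without H replicate 1, and to 1 without H replicate 2. In MDA-MB-231 they fell to 0 without N replicate 1, without N replicate 2 and without H replicate 1. DESeq2 called 10 histone genes of MCF10A and 3 of MDA-MB-231. With no filter beyond 1 read more were called in both lines than by the main fit. The total RNA libraries of MCF10A were paired by replicate number, and with that block 5 were called. An unadjusted p under 0.05 was reached by 18 histone genes of MCF10A and by 8 of MDA-MB-231.

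PP242 in normoxia raised histone mRNAs in MDA-MB-231, where 5 of 36 were called higher and 0 lower in total RNA, beside 0.555% of all genes tested. In MCF10A 0 of 41 were called by edgeR and 0 by DESeq2, beside 0.648%, with 2 at an unadjusted p under 0.05. The 5 genes were HIST1H2BC, HIST1H2BK, HIST1H2AC, HIST1H1C and HIST1H4H, which cover H2B, H2A, H1 and H4. HIST1H1C codes for a widely expressed linker histone.

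HIST1H2BC had the largest of these changes. It was at 0.897 and 1.65 CPM in N and 5.55 and 5.36 in NPP, a log2 fold change of 2.15 (SE 0.28, adjusted p = 0.00364). HIST1H2AC rose to 49.2 and 43.9 CPM, a log2 fold change of 1.80 (SE 0.25, adjusted p = 0.00364). HIST1H2BK was at 25.0 and 29.2 CPM in N and 79.5 and 76.9 in NPP, a log2 fold change of 1.53 (SE 0.20, adjusted p = 0.00364). In each of the 3 genes both NPP libraries were above both N libraries. HIST1H1C was at 24.6 and 27.9 CPM in N and 59.3 and 78.5 in NPP, a log2 fold change of 1.40 (SE 0.24, adjusted p = 0.0185). HIST1H4H was at 5.32 and 5.61 CPM in NPP, a log2 fold change of 1.03 (SE 0.21, adjusted p = 0.0404). The count of 5 became 3 without N replicate 1, 2 without N replicate 2 and 3 without NPP replicate 2, and DESeq2 called 9. It was also higher with no filter beyond 1 read. In MCF10A total RNA HIST1H2AC was at 14.6 and 26.4 CPM in NPP, a log2 fold change of 0.73 (SE 0.56, adjusted p = 0.752). The difference of the PP242 change between the lines was called for 0 of the 50 histone genes tested jointly by edgeR and 0 by DESeq2, beside 0.056% of 14298 genes, with 4 at an unadjusted p under 0.05.

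Hypoxia with PP242 raised the most histone genes. In MCF10A total RNA 22 of 41 rose and 0 fell, beside 14.9% of all genes tested. In MDA-MB-231 16 of 36 rose and 0 fell, beside 13.2%. The median log2 fold change of the histone genes tested was 2.32 in MCF10A, beside -0.01 over all genes tested, and 1.19 in MDA-MB-231, beside -0.05. Leaving out 1 library moved these medians to between 1.89 and 2.87 and between 0.93 and 1.31, and with no filter beyond 1 read they were 2.11 and 0.49. The genes called were 1 of 4 H1, 5 of 10 H2A, 10 of 12 H2B, 4 of 9 H3 and 2 of 6 H4 genes tested in MCF10A. They were 1 of 2 H1, 3 of 9 H2A, 8 of 10 H2B, 1 of 7 H3 and 3 of 8 H4 genes in MDA-MB-231. A gene that is seen only when it is high can pass the filter on low counts through its treated libraries, so these are counts of the genes tested and not of all 71.

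Of the genes called, 15 were shared by the lines, which is 68.2% of the 22 and 93.8% of the 16. The share of calls common to the lines over all genes is not given here. The overlap is therefore not read as particular to the histone genes. Only 27 histone genes were tested in both lines, and 4 of the 22, HIST1H2BG, HIST1H3E, HIST3H2A and HIST3H2BB, were not tested in MDA-MB-231 and could not be shared. The 12 with the smallest adjusted p were the linker histone gene HIST1H1C, the H2A genes HIST1H2AC, HIST1H2AG and HIST2H2AA3, the H2B genes HIST1H2BC, HIST1H2BD, HIST1H2BJ, HIST1H2BK and HIST2H2BE, the H3 gene HIST1H3H, and the H4 genes HIST1H4H and HIST2H4A. All 4 core histones and the linker histone were thus among them.

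HIST1H1C was at 6.89 and 4.30 CPM in N and 25.1 and 154 in HPP in MCF10A, a log2 fold change of 4.00 (SE 0.95, adjusted p = 0.0161). In HPP MDA-MB-231 had 82.2 and 100.3 CPM, a log2 fold change of 1.80 (SE 0.24, adjusted p = 0.000420). The groups did not overlap, and in MCF10A the change rested much more on replicate 2. HIST1H2AC reached 98.5 and 352 CPM in MCF10A, a log2 fold change of 4.18 (SE 0.63, adjusted p = 0.00142). In MDA-MB-231 it reached 129 and 144.5, a log2 fold change of 3.35 (SE 0.26, adjusted p = 4.26e-06). HIST1H2AC in MDA-MB-231 had the smallest adjusted p of any histone gene in that contrast, and its replicates were close.

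HIST1H2BD reached 33.6 and 86.7 CPM in MCF10A, a log2 fold change of 3.79 (SE 0.59, adjusted p = 0.00162), and 40.0 and 36.4 in MDA-MB-231, a log2 fold change of 2.55 (SE 0.30, adjusted p = 0.000158). HIST1H2BK reached 19.4 and 57.7 CPM from 7.31 and 6.24 in MCF10A, a log2 fold change of 2.51 (SE 0.54, adjusted p = 0.0105). In MDA-MB-231 it reached 108.97 and 113.9, a log2 fold change of 2.04 (SE 0.21, adjusted p = 4.63e-05). The HIST1H2BK replicates were close in MDA-MB-231 and far apart in MCF10A. HIST2H2BE was at 2.56 and 2.47 CPM in N and 16.8 and 63.7 in HPP in MCF10A, and at 1.22 and 1.48 and then 6.06 and 7.37 in MDA-MB-231. Its log2 fold changes were 4.00 (SE 0.68, adjusted p = 0.00274) and 2.33 (SE 0.31, adjusted p = 0.000423).

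HIST1H3H, the leading H3 gene, was at 0.888 and 0.969 CPM in N and 3.92 and 17.2 in HPP in MCF10A, a log2 fold change of 3.50 (SE 0.75, adjusted p = 0.00972). In MDA-MB-231 it was at 0.717 and 1.02 in N and 3.32 and 4.93 in HPP, a log2 fold change of 2.27 (SE 0.33, adjusted p = 0.000753). Both HPP libraries lay above both N libraries of HIST1H3H in each line. HIST2H4A was at 4.57 and 7.54 CPM in N and 88.2 and 315 in HPP in MCF10A, a log2 fold change of 5.05 (SE 0.74, adjusted p = 0.00128). MDA-MB-231 had 2.55 and 3.64 in N and 16.2 and 14.3 in HPP, a log2 fold change of 2.33 (SE 0.34, adjusted p = 0.000763). HIST1H4H reached 5.87 and 13.1 CPM in MCF10A, a log2 fold change of 5.22 (SE 0.76, adjusted p = 0.00128). In MDA-MB-231 it reached 11.9 and 12.5, a log2 fold change of 2.18 (SE 0.21, adjusted p = 3.30e-05). Of the other named genes, HIST1H2AG rose by a log2 fold change of 2.65 and 1.67, HIST1H2BJ by 3.08 and 2.28, and HIST2H2AA3 by 3.77 and 2.73 in MCF10A and MDA-MB-231.

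**Figure D2:**
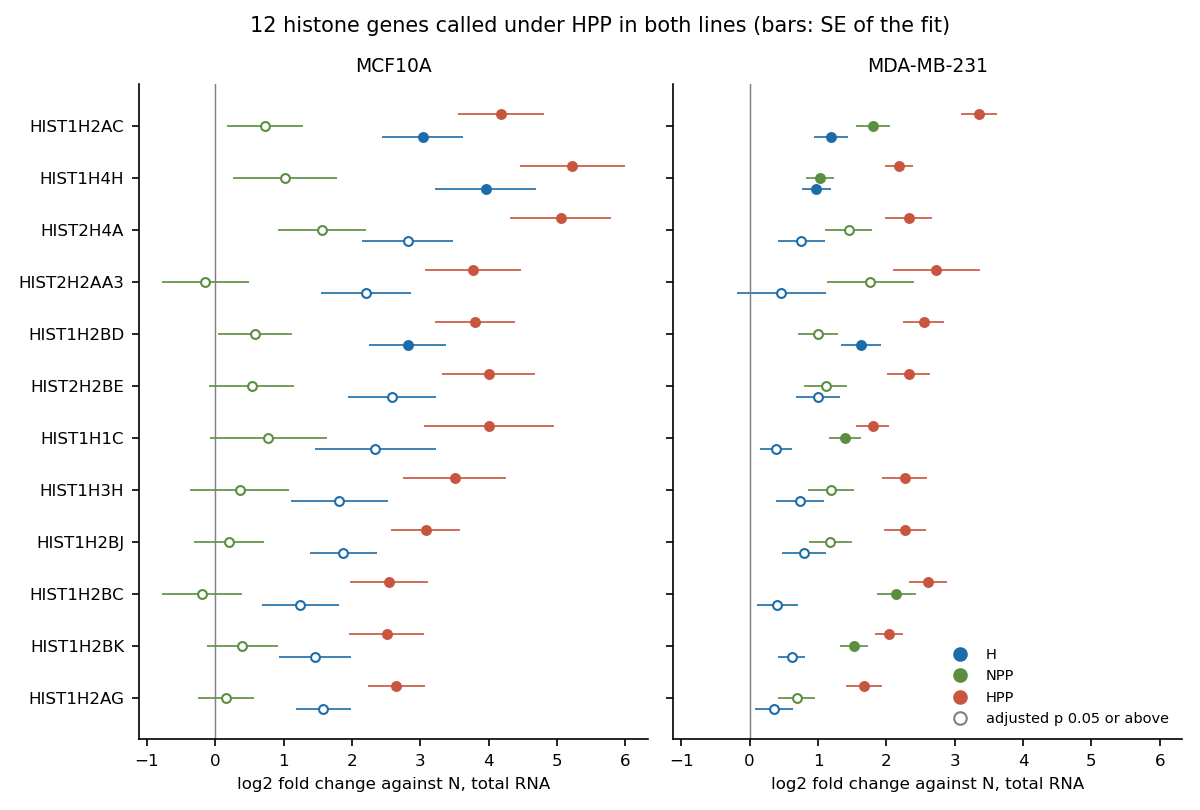
Log2 fold change against N in total RNA, with its SE, of the 12 named histone genes called under HPP in both lines, with MCF10A on the left and MDA-MB-231 on the right; filled points have an adjusted p under 0.05. H calls were HIST1H2AC, HIST1H2BD and HIST1H4H in both lines, and NPP calls stood in MDA-MB-231 and not in MCF10A.

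Single libraries mattered in MCF10A, where the count was 9 without HPP replicate 2, 9 without N replicate 1, 7 without N replicate 2 and 23 without HPP replicate 1. The count in MDA-MB-231 stayed between 11 and 13 when any 1 of its 4 libraries was left out. Of the 12 named genes, HIST1H1C, HIST1H2BC, HIST1H2BK and HIST1H3H in MCF10A were not called without N replicate 1, N replicate 2 or HPP replicate 2, and HIST2H2AA3 was not called without N replicate 2. In MDA-MB-231 HIST2H2AA3 was not called without N replicate 2 or HPP replicate 2, and the other named genes were called each time. DESeq2 called 24 in MCF10A and 16 in MDA-MB-231.

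Some of the genes are near-identical copies among which the counting program RSEM divides shared reads by estimation, so the split between copies is uncertain and their sums were tested as well. HIST2H4A with HIST2H4B rose by a log2 fold change of 4.84 in MCF10A (SE 0.70, adjusted p = 0.00123) and 3.00 in MDA-MB-231 (SE 0.25, adjusted p = 1.08e-05) in HPP total RNA. HIST2H2AA3 with HIST2H2AA4 rose by 4.34 in MCF10A (SE 0.86, adjusted p = 0.00656) and 1.66 in MDA-MB-231 (SE 0.26, adjusted p = 0.00112). HIST2H3A with HIST2H3C and HIST2H3D rose by 2.00 in MCF10A (SE 0.43, adjusted p = 0.00965), and had a log2 fold change of 1.11 in MDA-MB-231 (SE 0.39, adjusted p = 0.0726). HIST2H3A and HIST2H3C carried the same value in every library, so they were counted as separate genes above but hold 1 measurement.

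PP242 was also compared within hypoxia. In MDA-MB-231 total RNA 10 of 36 histone genes were higher in HPP than in H and 0 were lower, beside 3.78% of all genes tested. The count was 4 without H replicate 2 and 3 without HPP replicate 2. In MCF10A 0 of 41 were called by edgeR and 4 by DESeq2, beside 3.74%, with 12 at an unadjusted p under 0.05. With the replicate block 2 were called. HIST1H2AC in MDA-MB-231, at the H and HPP levels given above, had a log2 fold change of 2.17 between them (SE 0.24, adjusted p = 0.000558). In MCF10A its H and HPP libraries overlapped, at 104.3 and 98.04 against 98.5 and 352 CPM.

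The difference between lines in the HPP change was called for 2 of the 50 histone genes tested jointly (4.0%), near the 3.31% of all genes, so this count is not a result about the histone genes as a group. HIST1H4H rose in both lines, and its change was lower in MDA-MB-231 by a log2 difference of -2.98 (SE 0.73, adjusted p = 0.0244). The change of HIST2H2AA4, which was not called in MDA-MB-231 alone (log2 fold change 0.83, SE 0.40, adjusted p = 0.181), was lower by -6.26 (SE 1.60, adjusted p = 0.0317), but its MCF10A normoxic libraries stood at 0.679 and 0 CPM, and for HIST2H2AA3 with HIST2H2AA4 summed the difference was -2.63 (adjusted p = 0.111). The count of 2 fell to 0 without MCF10A N replicate 2, MCF10A HPP replicate 2, MDA-MB-231 N replicate 2 or either MDA-MB-231 HPP replicate, and to 1 without MDA-MB-231 N replicate 1. It was 3 without MCF10A HPP replicate 1. The count was above 2 by DESeq2 and with a replicate block within each fraction, and 1 with near-identical copies summed. For the hypoxia change alone 0 of 50 were called by edgeR and 1 by DESeq2, beside 0.266%, with 7 at an unadjusted p under 0.05.

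Histone genes were called on polysomes as well. Under HPP 19 of 41 rose and 0 fell in MCF10A, beside 22.2% of all genes tested, and 17 of 36 rose and 0 fell in MDA-MB-231, beside 19.4%. All 19 in MCF10A were also called in total RNA, and 14 of the 17 were in MDA-MB-231. Under H 2 rose in MCF10A, beside 1.49%, and 2 in MDA-MB-231, beside 2.29%, and these were HIST1H2AC and HIST1H2BD in both lines. Under NPP 4 rose in MDA-MB-231, beside 1.95%, namely HIST1H2AC, HIST1H2BC, HIST1H2BK and HIST1H1C. In MCF10A 0 were called under NPP by edgeR and 0 by DESeq2, beside 0.823%, with 0 at an unadjusted p under 0.05.

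HIST1H2AC was at 18.1 and 15.9 CPM in polysomal N and 165 and 87.2 in H, 18.5 and 31.6 in NPP, and 159 and 325 in HPP in MCF10A. In MDA-MB-231 it was at 18.8 and 19.2 in N, 57.7 and 30.8 in H, 78.1 and 71.5 in NPP, and 200.0 and 246 in HPP. In polysomal RNA too, both HPP libraries lay above both N libraries in each line. The log2 fold changes under HPP were 3.83 (SE 0.62, adjusted p = 0.00172) and 3.56 (SE 0.26, adjusted p = 1.41e-06).

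The polysomal counts also moved with single libraries in MCF10A. The HPP count was 11 without N replicate 1 and 11 without HPP replicate 2. The H count of 2 was 0 without N replicate 1, N replicate 2 or H replicate 1, and 1 without H replicate 2, and DESeq2 called 10. In MDA-MB-231 the H count was 1 without N replicate 1, N replicate 2 or H replicate 1, and the NPP count was 2 without NPP replicate 1. With no filter beyond 1 read the H counts of both lines and the NPP count of MDA-MB-231 were higher. The H counts were also higher with a replicate block within each fraction.

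The polysomal change minus the total change was tested for each gene as an interaction, which is not the translational efficiency score defined in the study, and that score was not computed here. The difference was called for 0 histone genes under each treatment in each line by edgeR and by DESeq2. Over all genes tested the share called was 0% under H, 0% under HPP and 0% under NPP for MCF10A, and 0.0148%, 0.696% and 0.34% for MDA-MB-231. An unadjusted p under 0.05 was reached under H by 0 histone genes of MCF10A and 1 of MDA-MB-231, under HPP by 2 and 0, and under NPP by 0 and 2. DESeq2 gave no adjusted p for 39 of the 41 under HPP and 41 under NPP in MCF10A, and for 32 and 35 of the 36 in MDA-MB-231. With 2 libraries a group, a change of the size of the standard errors drawn in the plot of total against polysomal change was not detectable. Under HPP the difference had a median of -0.57 (MCF10A) and -0.31 (MDA-MB-231), beside 0.05 and 0.06 over all genes tested. When 1 library was left out it ran from -1.17 to 0.57 for MCF10A, so its sign was not stable there, and from -0.48 to -0.08 for MDA-MB-231, where it was 0 with no filter beyond 1 read.

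**Figure D3:**
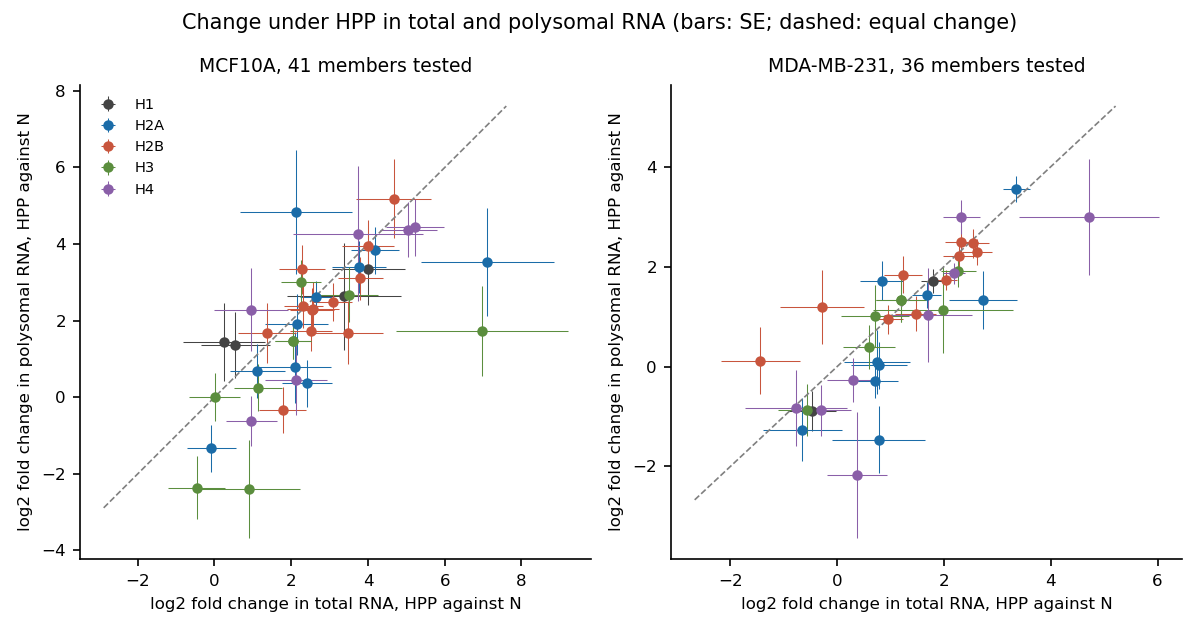
Log2 fold change in HPP against N in polysomal RNA against that in total RNA, with SE in both directions, for the 41 histone genes tested in MCF10A and the 36 in MDA-MB-231; colours give the histone type and the dashed line equal change. The polysomal change exceeded the total change in 10 of the genes tested in each line, and 0 differed between fractions at an adjusted p under 0.05.

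In untreated normoxic cells, 3 of 36 histone genes (8.33%) were more abundant in polysomal than in total RNA in MDA-MB-231 and 0 less, a share below the 13.1% of all genes tested. They were HIST2H2AC, an H2A gene, with a log2 fold change of 1.34 (SE 0.40, adjusted p = 0.0428), HIST1H1C with 0.91 (SE 0.24, adjusted p = 0.0243), and HIST1H2BK with 0.75 (SE 0.20, adjusted p = 0.0273). HIST1H1C, for example, was at 24.6 and 27.9 CPM in total and 54.7 and 43.4 in polysomal RNA. The count of 3 was 0 without N total replicate 1, N total replicate 2 or N polysomal replicate 1, and 1 without N polysomal replicate 2. With the culture as a block 4 were called, and HIST2H2AC was not among them (adjusted p = 0.0509). In MCF10A 0 were called by edgeR and 0 by DESeq2, beside 0%, with 4 at an unadjusted p under 0.05. A replicate block within each fraction gave 4 calls there, 2 higher and 2 lower in polysomal RNA, and the culture block gave 0.

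The histone genes were also split by their annotated 3′ ends. In GENCODE v44, a later release than the one used for counting, 18 of the 71 genes have a transcript that ends more than 100 bases past the stem-loop, and the other 53 end within 100 bases of it. Only genes with enough counts were tested, and more of the longer class were: 15 of the 18 and 26 of the 53 in MCF10A, and 14 and 22 of these classes in MDA-MB-231. In HPP total RNA 13 of the 15 and 9 of the 26 were called in MCF10A, beside 14.9% of all genes, and 11 of the 14 and 5 of the 22 in MDA-MB-231, beside 13.2%. In polysomal RNA 12 of the 15 and 7 of the 26 were called in MCF10A, beside 22.2%, and 10 of the 14 and 7 of the 22 in MDA-MB-231, beside 19.4%. Genes with a longer end also had more counts each, with a median over the 16 libraries of a line of 1173 against 84 in MCF10A and 1474 against 47 in MDA-MB-231. In all, the longer class held 61.2% of the histone counts of MCF10A but 42.6% of those of MDA-MB-231, where the 53 other genes held 57.4%. Calls and depth per gene thus moved together, and the part of depth in the calls was not tested.

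HIST1H2AC, HIST1H2BC, HIST1H2BD, HIST1H4H and HIST2H4A are among the 18. HIST1H1C, HIST1H2BK and HIST1H2AG are annotated to end at the stem-loop and rose in both lines too. Poly(A) selection keeps an mRNA by its tail, and the part of tail length or 3′ end choice in the rise was not tested.

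**Figure D4:**
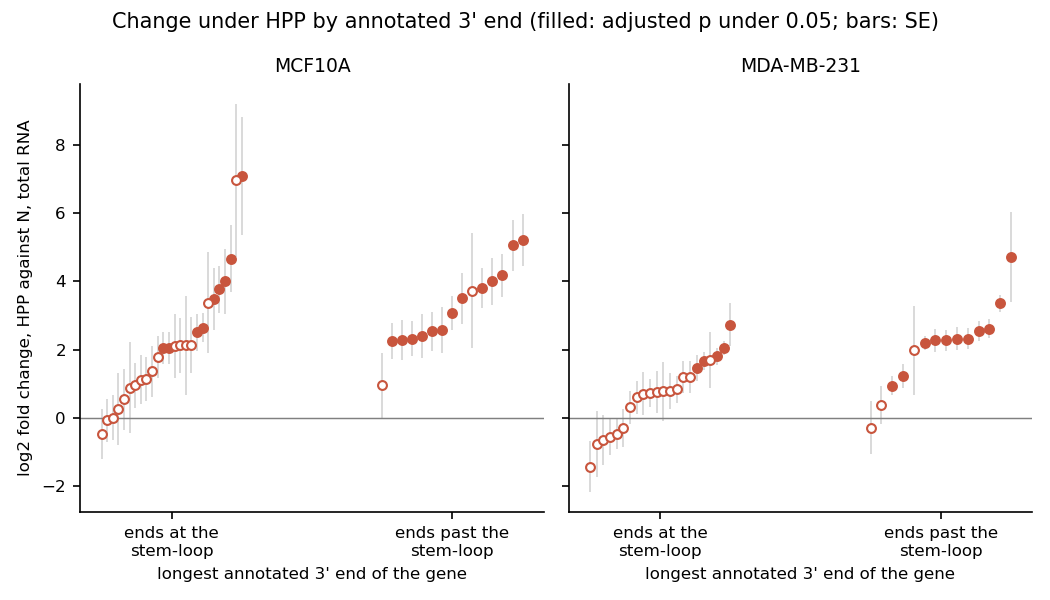
Log2 fold change in HPP against N in total RNA, with its SE, of the histone genes tested in each line, split by whether an annotated transcript ends more than 100 bases past the stem-loop. Points are ordered by value within each class, and filled points have an adjusted p under 0.05; in MCF10A 13 of the 15 tested genes that end past the loop were called and 9 of the 26 that end at it.

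RNAs that carry no poly(A) tail were read as a rough guide to what passed the selection in total RNA. The most abundant of 20 on a list was RN7SL1, the RNA of the signal recognition particle. The 20 summed to 47.7 and 44.2 CPM in MCF10A total RNA in N and 11.8 and 47.7 in HPP, and to 16.9 and 40.9 and then 19.2 and 22.7 in MDA-MB-231. The HPP and N libraries overlapped in both lines, and in MCF10A HPP the larger value belonged to replicate 2, which also had the larger histone sum. In polysomal RNA the list summed to between 0.389 and 2.51 CPM in MCF10A. That RNA had first been separated on a sucrose gradient, so these values do not measure the selection alone. Of the 20 RNAs, 5 were at 0 in every library. Their part in the histone change was not tested.

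Of 40 DNA replication genes tested in HPP total RNA, 0 rose and 17 fell in MCF10A, beside 14.9% of all genes called in either direction. In MDA-MB-231 0 rose and 17 fell too, beside 13.2%, and the rest of the 40 did not pass the test in that line or in the other. The median log2 fold changes of the list were -0.90 and -0.45, beside -0.01 and -0.05 over all genes tested. Their sum in total RNA was 3571 and 3770 CPM in N and lay between 1961 and 2243 in HPP in MCF10A, and in MDA-MB-231 between 5926 and 6454 and then 4708 and 4776. In MCF10A POLE2, a subunit of DNA polymerase epsilon, fell by 2.32 on the log2 scale and CDC6, which loads the replicative helicase, fell by 2.10. In MDA-MB-231 CDC6 fell by 1.27 and POLE2 by 1.196. CDC6 was at 83.9 and 91.9 CPM in N and 19.3 and 21.6 in HPP in MCF10A, and at 185 and 228 and then 88.0 and 83.2 in MDA-MB-231. Both HPP libraries lay below both N libraries in each line, while HIST1H2AC and the histone sum lay above them.

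Of 21 genes for histone mRNA 3′ processing, 0 rose and 5 fell in HPP total RNA of MCF10A, beside 14.9% of all genes called in either direction, and 0 rose and 6 fell in MDA-MB-231, beside 13.2%. CPSF2, a subunit of the cleavage complex, fell by 1.62 on the log2 scale and CSTF2T by 1.27 in MCF10A, and LSM10, part of the U7 particle, fell by 0.80 and CPSF4 by 0.69 in MDA-MB-231. SLBP was at 104.1 and 109.9 CPM in N and 47.2 and 54.8 in HPP in MCF10A, and at 160 and 179 and then 115.4 and 104.7 in MDA-MB-231. Its HPP libraries lay below its N libraries in both lines. The calls of CPSF2, LSM10 and CPSF4 were lost on leaving out any of 3 of the 4 libraries in turn, and that of CSTF2T on leaving out any of the 4.

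Of 10 genes for histone gene transcription, set beside those same shares of all genes, 0 rose and 3 fell in MCF10A, with CCNE2 and CCNE1, the E-type cyclins, falling by 2.72 and 2.00 on the log2 scale. In MDA-MB-231 CCNE2 fell by 1.16 and HINFP, a factor that binds H4 promoters, rose by 0.72. Of 17 genes for the translation and decay of histone mRNA 0 were called in either line. Of 19 histone chaperones and acetylation factors, 0 rose and 6 fell in MCF10A, led by CHAF1A, of the chromatin assembly factor, by 1.51 and HIRA by 1.27. In MDA-MB-231 0 rose and 5 fell, led by CHAF1B by 0.92 and CHAF1A by 0.65. The call of HIRA was lost without any 1 of 3 of the 4 libraries, those of HINFP and of CHAF1A in MDA-MB-231 without any 1 of 2, and that of CCNE2 in MCF10A without 1.

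The histone genes outside the clusters are mostly replication-independent variants, listed here with CENPA, the centromeric H3, and H2AFX, which can also give a stem-loop mRNA. Of 12 tested in MCF10A 1 rose and 1 fell under HPP in total RNA, beside 14.9% of all genes, and of 11 in MDA-MB-231 2 rose and 0 fell, beside 13.2%. H1F0, the gene for the linker histone H1.0 of resting and differentiated cells, rose in both. It was at 78.1 and 66.4 CPM in N and 333 and 619 in HPP in MCF10A, a log2 fold change of 2.72, and at 355 and 362 and then 894 and 1042 in MDA-MB-231, a log2 fold change of 1.43. In MCF10A H2AFY2, a macroH2A gene, fell by 1.54 on the log2 scale, and in MDA-MB-231 H1FX rose by 0.87, calls that were lost without 1 of the 4 libraries for H2AFY2 and without either of 2 for H1FX. Under H, in total RNA, H1F0 was at 459 and 398 CPM in MCF10A.

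Under H and NPP, 1.54% and 0.648% of all genes were called in total RNA of MCF10A, and 1.27% and 0.555% in that of MDA-MB-231. Of the 40 DNA replication genes 0 rose and 1 fell under H and 0 rose and 1 fell under NPP in MCF10A, and 0 rose and 2 fell under H in MDA-MB-231. Few calls did not mean few shifts. Under H in MCF10A all of these genes had a negative log2 fold change, from -0.16 (TK1) to -1.17 (POLE2). Under NPP in MCF10A their changes went both ways, from -1.25 (GINS1) to 0.70 (CDT1). The histone genes outside the clusters had 1 rise under H in MCF10A and 1 under NPP in MDA-MB-231, and histone gene transcription had 1 rise under NPP in MDA-MB-231.

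Many of these genes lie head to head in pairs. There were 14 such pairs, with HIST1H2BO in 2 of them, and with 170 to 979 bases between the annotated starts. In MCF10A both genes were tested in 8 pairs, and in HPP total RNA both were called in 3, one in 3 and neither in 2. In MDA-MB-231 both were tested in 6, and both were called in 2, one in 3 and neither in 1. HIST1H2BC and HIST1H2AC lie 219 bases apart and both rose in both lines, although HIST1H2BC held 976 counts and HIST1H2AC 56141 over the 16 libraries of MCF10A. HIST1H2BC rose by a log2 fold change of 2.54 (SE 0.57, adjusted p = 0.0124) in MCF10A and 2.61 (SE 0.28, adjusted p = 8.17e-05) in MDA-MB-231.

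HIST2H2BE and HIST2H2AC, 236 bases apart, were a pair of another kind, chosen here after their values were seen. HIST2H2BE rose in both lines as given above. HIST2H2AC was at 0.888 and 0.738 CPM in N and 0.402 and 1.14 in HPP in MCF10A, a log2 fold change of -0.08 (SE 0.63, adjusted p = 0.954), and had a log2 fold change of 0.72 (SE 0.41, adjusted p = 0.273) in MDA-MB-231. Its HPP libraries overlapped its N libraries in MCF10A.

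Promoters were read from RefSeq for the 66 histone genes that matched, from 250 bases before to 50 after the start, and searched on both strands for 3 motifs. The octamer ATTTGCAT, which binds the factor OCT1, was in 39.4% of them and in 1.77% of all 35116 promoters. It was in 77.8% of H2B, 68.8% of H2A and 7.69% of H3 promoters and in 0% of H1 and H4 promoters. CCAAT was in 84.8% against 34.6% of all promoters, with 100% of H1, H2A, H2B and H3 promoters but 23.1% of the 13 H4 promoters, and TATAAA in 66.7% against 11.5%. A match says that the letters are present and nothing about binding.

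The windows of 150 bases before the start of HIST1H2BC and of HIST1H1C are shown because the first holds an octamer and the second does not. They are on RefSeq GRCh38.p14, 5′ to 3′ on the gene's minus strand, with the octamer and CCAAT in capitals.
HIST1H2BC, chr6:26123927-26124076: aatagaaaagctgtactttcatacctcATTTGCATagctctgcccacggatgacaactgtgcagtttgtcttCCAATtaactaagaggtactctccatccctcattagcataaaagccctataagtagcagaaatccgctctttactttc
HIST1H1C, chr6:26056471-26056620: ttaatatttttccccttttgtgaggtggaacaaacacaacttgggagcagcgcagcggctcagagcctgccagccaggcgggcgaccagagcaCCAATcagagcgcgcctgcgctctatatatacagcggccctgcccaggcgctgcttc
The octamer of HIST1H2BC, at chr6:26124042-26124049, is the same 8 bases as the one in the promoter of its neighbour HIST1H2AC, read on the other strand. Of 17 distinct octamer positions in the histone promoters, 8 were in the windows of more than one gene. HIST1H1C, whose promoter holds no octamer, rose with HIST1H2AC and HIST1H2BC in HPP total RNA in both lines and in NPP total RNA in MDA-MB-231.

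Levels in untreated cells were also compared between the lines. In normoxic total RNA 7 of 50 histone genes were higher and 10 lower in MDA-MB-231 than in MCF10A, in all 34.0% of those tested, which is below the 40.7% of all genes. With the replicate block HIST1H2BG, HIST1H2AE, HIST1H4E, HIST2H4A and HIST1H1C were not called in this comparison. The count of 17 was 10 without MCF10A N replicate 2 and 11 without MDA-MB-231 N replicate 2. HIST1H4H was higher in MDA-MB-231 by a log2 difference of 2.94 (SE 0.57, adjusted p = 0.000274) and HIST1H2BK by 1.53 (SE 0.43, adjusted p = 0.00695). The lines were counted in separate tables, so line and table cannot be told apart for levels.

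Along chromosome 6 some of the low genes of MDA-MB-231 were neighbours. Others lay outside the stretches given here, such as HIST1H2AA with 4 counts and HIST1H2BM with 20 over its libraries. The 15 genes from HIST1H4D to HIST1H2BI, at chr6:26188710-26273412 on GRCh38, held 35 counts in all over its 16 libraries, with 0 to 9 counts a gene, and 15 of the 35 came from N total replicate 2. In MCF10A they held 6761 counts and 13 of the 15 had counts. HIST1H2BG of this stretch was at 0.470 and 0.695 CPM in N and 4.54 and 25.4 in HPP in MCF10A total RNA, and at 0 and 0 and then 0.0279 and 0.0329 in MDA-MB-231. The 4 genes from HIST1H2AL to HIST1H4L held 239 counts in MCF10A and 5 in MDA-MB-231. On chromosome 1 HIST3H2A and HIST3H2BB held 12575 and 10. These stretches were chosen after the order of the genes was seen, and DNA copy number was not measured.

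**Figure D5:**
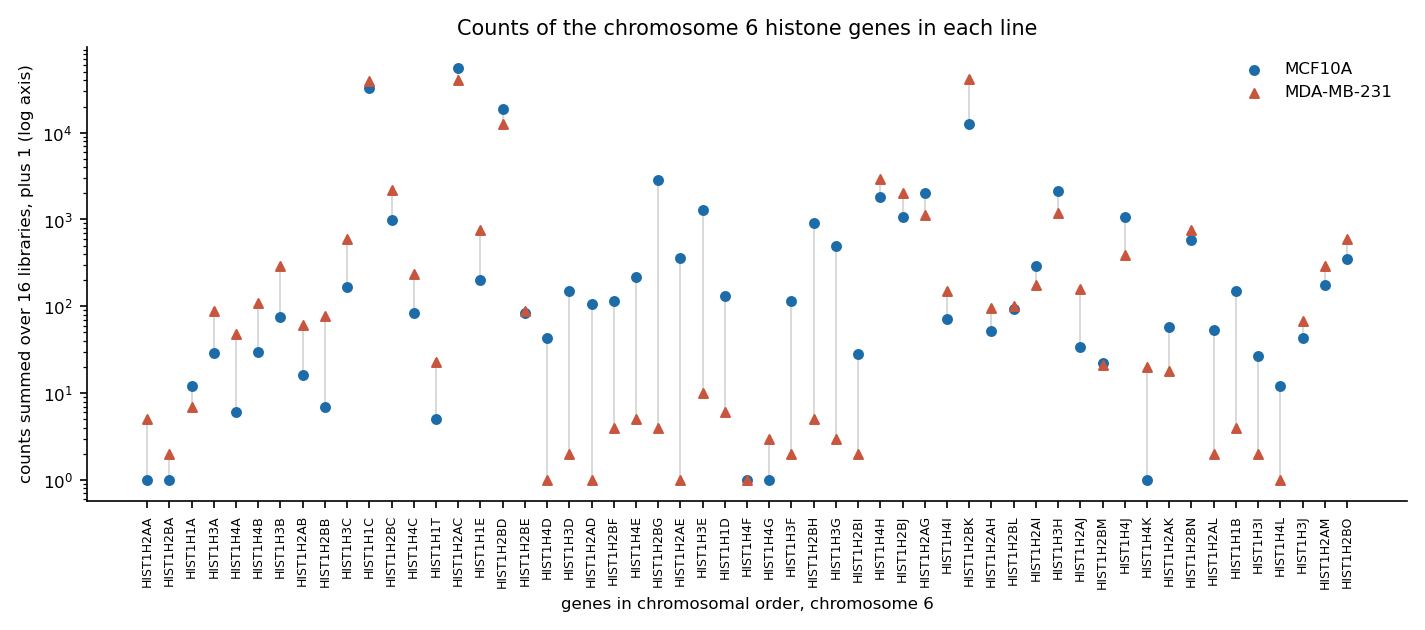
Counts of each chromosome 6 histone gene summed over the 16 libraries of each line, plus 1, on a log axis, with the genes in chromosomal order and a grey line joining the lines' values for each gene. The 15 genes from HIST1H4D to HIST1H2BI stayed at 9 counts or fewer in MDA-MB-231, while genes on both sides of them had counts in both lines.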

How the data were processed

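The deposited values are RSEM expected counts per gene, which the authors made from poly(A)-selected TruSeq libraries with no strand stated, mapped with STAR and given without normalisation. The counts are whole numbers and were not rounded further. The paper's methods name GRCh38 and the submitters' processing notes name GRCh37, so coordinates were read from the reference annotation on GRCh38 by gene ID and not from the counts. RSEM divides reads that fit several genes by estimation.

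Protein-coding genes were kept, and each line's 16 libraries were fitted in 8 groups with edgeR 4.0.16 in R 4.3.3 (filterByExpr, TMM, quasi-likelihood F test, Benjamini-Hochberg over all genes tested, threshold 0.05). The 32 libraries were fitted jointly for differences between lines. DESeq2 1.42.0, no filter beyond 1 read, replicate blocks, a culture block between fractions, summed copies and leaving out each library were alternatives. The fits were also run on simulated data, and the outcome of that run is not reported here.

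The histone genes, lists and tests were chosen with earlier results of these data known. Named genes were the leading gene of each type and line, those called under HPP in total RNA in both lines (the 12 with the smallest adjusted p), under H or NPP, between fractions or between lines, and the 2 largest called changes of each list. In MCF10A total RNA the deviations of same-numbered libraries from their group means correlated in 6 of 6 pairs of groups (r from 0.437 to 0.891), so the numbers were read as pairs there. In MCF10A polysomal RNA 3 of 6 pairs, and in MDA-MB-231 5 of 6 in each fraction, had an r over 0.1. In MDA-MB-231 r ran from -0.240 to 0.561 in total and from -0.038 to 0.429 in polysomal RNA. The numbers were not read as pairs in these sets, although most pairs of MDA-MB-231 correlated. Its main tests therefore ignore any pairing, and counts with a replicate block are given as alternatives. The replicates were biological per the labels, and p-values measure the spread between them. CPM are counts scaled to the TMM-adjusted library size.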

Additional observations from a re-analysis of the deposited data

Results flagged for a closer look

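The change under HPP in total RNA differed between the lines for 2 of 50 histone genes (4.0%) in edgeR's joint quasi-likelihood fit, near the 3.31% of all genes, so the count says nothing particular about the histone genes. For HIST1H4H the MDA-MB-231 change minus the MCF10A change was -2.98 on the log2 scale (SE 0.73, adjusted p = 0.0244). HIST1H4H rose in both lines and started higher in MDA-MB-231, at 2.87 and 2.44 CPM in N against 0.339 and 0.169 in MCF10A. For HIST2H2AA4 the difference was -6.26 (SE 1.60, adjusted p = 0.0317). HIST2H2AA4 was at 0.679 and 0 CPM in N and 7.91 and 82.3 in HPP in MCF10A, and at 4.45 and 8.19 and then 9.69 and 12.5 in MDA-MB-231. It shares reads with its near-identical copy HIST2H2AA3, and the summed copies had a difference of -2.63 (adjusted p = 0.111).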

How the results depend on the processing

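No called gene reversed its direction under any alternative run, but some medians changed sign, among them that of the polysomal minus the total change under HPP in MCF10A (-0.57, and -1.17 to 0.57 with 1 library left out), and some ratios of summed levels to N crossed 1, as for the H1 genes of MDA-MB-231 without HIST1H1C (0.656 in place of 3.33 under HPP in total RNA). DESeq2 moved the count of histone genes called in MCF10A from 3 to 10 under H in total RNA, from 2 to 10 under H in polysomal RNA and from 0 to 4 for HPP against H, and in MDA-MB-231 from 5 to 9 under NPP in total RNA. It moved the difference between lines from 0 to 1 under H and from 2 to 4 under HPP. With no filter beyond 1 read the counts were 5 and 7 under H in total and polysomal RNA of MCF10A, and in MDA-MB-231 6 and 9 under H, 13 and 10 under NPP, and 6 for polysomal against total RNA in N. With near-identical copies summed, 1 in place of 2 differed between lines under HPP.

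A block for the culture shared by a total and a polysomal library left all 8 counts between fractions within 1.5 times, and 1 of 3 single genes, HIST2H2AC in MDA-MB-231 N, lost its call (adjusted p = 0.0509). The replicate block over a whole line left all 26 counts within 1.5 times. It took the call from 5 of 152 single genes, HIST1H2BG, HIST1H2AE, HIST1H4E, HIST2H4A and HIST1H1C between lines in N, and the block within each fraction took it from the first 4 of these. Replicate numbers correlated with r from -0.745 to 0.891 over 28 pairs of groups in MCF10A, with 10 over 0.1, and from -0.240 to 0.561 in MDA-MB-231, with 23 over 0.1. With a replicate block within each fraction the counts in MCF10A were 5 and 7 under H in total and polysomal RNA, 4 for polysomal against total RNA in N and 2 for HPP against H. In MDA-MB-231 they were 4 under H in polysomal RNA and 5 for polysomal against total RNA in N, and 4 differed between lines under HPP.

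Leaving out 1 library at a time gave ranges in MCF10A of 0 to 1 under H and 7 to 23 under HPP in total RNA, and 0 to 1 and 11 to 18 in polysomal RNA. In MDA-MB-231 they were 0 to 2 under H, 2 to 4 under NPP and 11 to 13 under HPP in total RNA, 1 to 2, 2 to 4 and 12 to 17 in polysomal RNA, 0 to 1 for polysomal against total RNA in N and 3 to 10 for HPP against H. Between lines they were 0 to 3 for the HPP change, 0 to 1 for the NPP change and 10 to 15 for the level in N. Calls of single genes were lost in 235 of 616 combinations of a gene and a left-out library, and the medians moved by more than the spread between replicates in 83 of 140, as in 16 of 26 with no filter beyond 1 read. The lone sample left in a group was assumed to vary like the other groups.

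For the summed levels, the ratio to N without the gene with the most counts in each type was 3.41 in place of 4.89 under H in MCF10A total RNA. In MDA-MB-231 it was 3.55 in place of 4.53 under HPP and 1.93 in place of 2.55 under NPP in total RNA, and 3.23 in place of 4.32 and 1.70 in place of 2.30 in polysomal RNA. With CPM of plain library size the last was 2.57. The causes of these moves were not tested. With 2 replicates a group and few histone counts, small changes were not detectable, most of all in MCF10A, whose common biological coefficient of variation was 0.325 against 0.150 in MDA-MB-231.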

Other observations

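In the annotation, 54 of the 71 histone genes have 1 exon in every transcript and 17 have a transcript of 2 or more exons. The letters AATAAA, the commonest poly(A) signal, occur within 2000 bases after the stop codon of 61 of the 71. A match of 6 letters in a window of that length describes the sequence and not its use. The stem-loop of HIST1H2AG, which rose under HPP in both lines, had a form found in 1 of the 71 genes. The same held for HIST1H4L, HIST1H2BI, HIST1H3E, HIST2H2AC and HIST1H2AK. Of these, HIST1H3E was called under HPP in MCF10A and HIST2H2AC in neither line.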
